A study of Rattus norvegicus with 2 samples.

Results

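Proteasome genes were followed in rat cortical neural stem cells after 48 h with or without ZD7288, a blocker of hyperpolarisation-activated (HCN) cation channels. The genes were those of the deposited gene table whose symbol starts with Psma, Psmb, Psmc, Psmd or Psme followed by a digit, which gave 44 of 25399 genes. Of these, 43 encode subunits, activators or assembly chaperones of the proteasome, and Psmc3ip, a meiotic recombination factor, only shares the prefix. The alpha ring gene Psma3 stands in the table under its synonym Psma3l.

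The proteasome is the protease that degrades ubiquitin-tagged proteins. Its core particle is a barrel of outer alpha rings and inner beta rings, and the catalytic beta subunits Psmb5, Psmb6 and Psmb7 face the inside. A cap binds the ubiquitin chain, removes it and threads the unfolded protein into the barrel, driven by the ATPases Psmc1 to Psmc6. Interferon-induced cells exchange the catalytic subunits for Psmb8, Psmb9 and Psmb10, which makes the immunoproteasome, and the Psme activators can take the place of the cap. Dividing progenitors depend on the proteasome to remove cyclins and other cell cycle regulators.

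Both groups were cells from the cortex of E14.5 Sprague-Dawley rat embryos, grown with FGF2, which holds them undifferentiated, and exposed to 0.2% DMSO with the medium renewed at 24 h. The ZD7288 group received 30 µM of the compound, which 1 label spells ZD2788, and the vehicle group received none. Each group was 1 library, so library, culture and treatment cannot be told apart, there was no replicate check and no test was made. Values are counts of unique molecular identifiers (UMIs, 1 per captured transcript molecule, read at the 3′ end) summed over a library and given per 1000000 UMIs (CPM). Intervals in brackets are exact 95% intervals that cover counting error only.

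After filtering, the vehicle library held 732 cells and 15611454 UMIs (median 17119 UMIs per cell), and the ZD7288 library 3135 cells and 73681950 UMIs (median 23001). The libraries shared 3 barcode sequences. Cells with fewer than 5000 UMIs made up 3.01% of vehicle and 9.47% of ZD7288 cells, and mitochondrially encoded UMIs made up a median of 5.84% and 4.70% of a cell's UMIs. Of 8 neural stem cell markers 6 were measured, led by Vim and Fabp7, while Hes5 was near 0 and the oligodendrocyte lineage gene Olig1 stood at 1687 CPM in vehicle and 896 CPM in ZD7288 cells. Of 10 immune cell markers, 7 had a count of 0 in both libraries, and the summed level was 1.02 and 1.06 CPM. Fibroblast and pericyte markers summed to 0.705 CPM in vehicle and 16.1 CPM in ZD7288 cells, and their part in the results was not tested.

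Most proteasome genes were modestly higher in the ZD7288 library. Genes that reached 20 CPM in either library counted as measured, and a log2 ratio beyond 0.32 in either direction, about 1.25-fold, was called higher or lower. Of the 44 genes 40 were measured, and 27 were called higher, 1 lower and 12 neither. Across all 4823 measured genes, 27.1% were called higher and 13.7% lower. The median log2 ratio was 0.40 over the 40 genes and 0.09 over all measured genes. The ratio was above 1 for 39 of the 40 genes, against 59.5% of all measured genes. With the libraries scaled by the median gene ratio, 19 were called higher (19.4% of all genes), 1 lower (19% of all genes), 35 of 40 had ratios above 1 (49.4% of all genes) and Psma7, Psmb4, Psme3 and Psmc3ip had ratios just below 1. At 1.5-fold, 10 of the 40 were higher and 1 lower, against 10.1% and 5.2% of all genes, and at 2-fold 0 were higher or lower, against 2.88% and 1.26%. The 4 genes below the floor were Psmb8, Psma8, which is specific to testis, Psmb11, which is specific to thymus, and Psmd10. Psmb9, 1 of the 27 called higher, reached the floor in the ZD7288 library only.

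The size of this difference moved with the mitochondrial share of the cells. Among cells with at most 5% mitochondrially encoded UMIs, 173 vehicle and 1912 ZD7288 cells, 8 of 40 genes were called higher against 17.7% of all genes, which is close to the background. Their direction was kept more often than their size: the ratio was above 1 for 36 of 40 genes, against 50.8% of all genes. The 8 genes were Psmb3, Psmb9, Psmb10, Psmc6, Psmd2, Psmd11, Psmd12 and Psmd5, and Psme4 was the 1 gene called lower, against 15.9% of all genes. In cells above 5%, 29 genes were called higher and 1 lower, against 26.8% and 13.5% of all genes. This split was chosen after the data were seen.

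**Figure D1:**
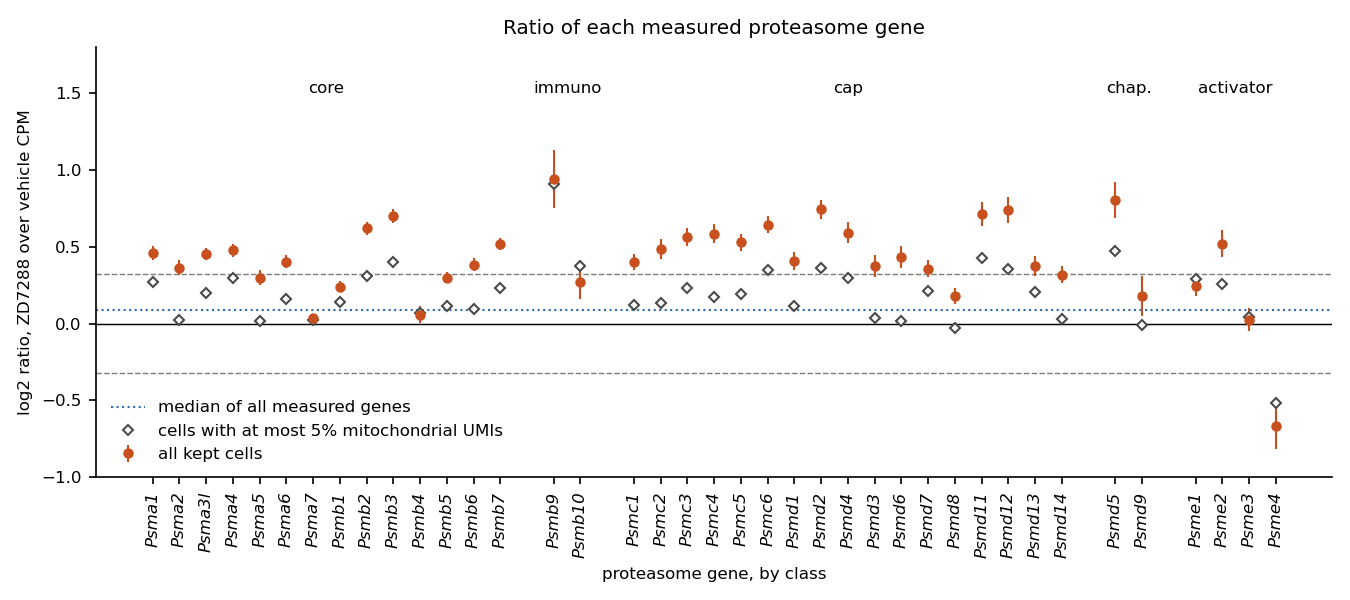
The log2 ratio of ZD7288 to vehicle CPM (vertical axis) is plotted for each measured proteasome gene, by class, with filled points and exact 95% counting intervals for all kept cells and open diamonds for cells with at most 5% mitochondrially encoded UMIs. Dashed lines mark a log2 ratio of 0.32 in either direction and the dotted line the median of all measured genes (0.09). Most filled points lie above the upper dashed line, most diamonds lie between the dashed lines, and Psme4 lies below the lower one in both.

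The core particle, which does the cutting, was higher as a whole. Its 14 genes summed to 5144 CPM in the vehicle and 6597 CPM in the ZD7288 library, a ratio of 1.28 (1.27 to 1.29). All 14 had ratios above 1, against 59.5% of all measured genes, and 9 were called higher, against 27.1%. The median log2 ratio was 0.39, against 0.09 over all measured genes. In cells with at most 5% mitochondrial UMIs the summed log2 ratio was 0.17, against 0.36 in all kept cells. There 1 of the 14 was called higher, against 17.7% of all genes.

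The alpha ring forms the gate through which proteins enter. Psma1 stood at 288 CPM in vehicle and 396 CPM in ZD7288 cells, a ratio of 1.37 (1.33 to 1.42). Psma4 (308 and 428 CPM, 1.39-fold), Psma3l (362 and 496 CPM, 1.37-fold) and Psma6 (342 and 453 CPM, 1.32-fold) lay close to it. Psma2 was at 249 and 321 CPM, 1.29-fold, and Psma5 at 236 and 289.9 CPM, 1.23-fold, just under the size rule. The ratios of these 6 alpha genes thus lay between 1.23 and 1.39. Psma7 lay outside that band and had the highest level of all core genes, 831 CPM in vehicle and 852 CPM in ZD7288 cells, with a ratio of 1.02 (1.01 to 1.04).

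The beta ring was less even. Among the structural subunits, Psmb3 stood at 287 CPM in vehicle and 466 CPM in ZD7288 cells, 1.62-fold higher (1.58 to 1.68). Psmb2 was at 331 and 509 CPM, 1.54-fold higher (1.49 to 1.58). These were the widest differences in the core particle. The level of Psmb3 is uncertain because RefSeq names 7 pseudogenes of it, and pseudogenes are named for 18 of the 44 genes. The other structural subunits differed less. Psmb1 was at 514 and 607 CPM, 1.18-fold (1.15 to 1.21), and Psmb4, the least abundant core gene, at 201 and 209 CPM, 1.04-fold (1.00 to 1.08).

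The catalytic subunits differ in the peptide bonds they cut. Psmb7, the trypsin-like site, stood at 383 CPM in vehicle and 548 CPM in ZD7288 cells, 1.43-fold higher (1.39 to 1.47). Psmb6, the caspase-like site, was at 336 and 437 CPM, 1.30-fold (1.27 to 1.34). Psmb5, the chymotrypsin-like site, was at 476 and 585 CPM, 1.23-fold (1.20 to 1.26), which missed the size rule. All 3 ratios were thus above 1, with Psmb5 the most abundant and Psmb6 the least in both libraries. In cells with at most 5% mitochondrial UMIs their ratios were 1.18 for Psmb7, 1.07 for Psmb6 and 1.08 for Psmb5, all within the size rule.

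**Figure D2:**
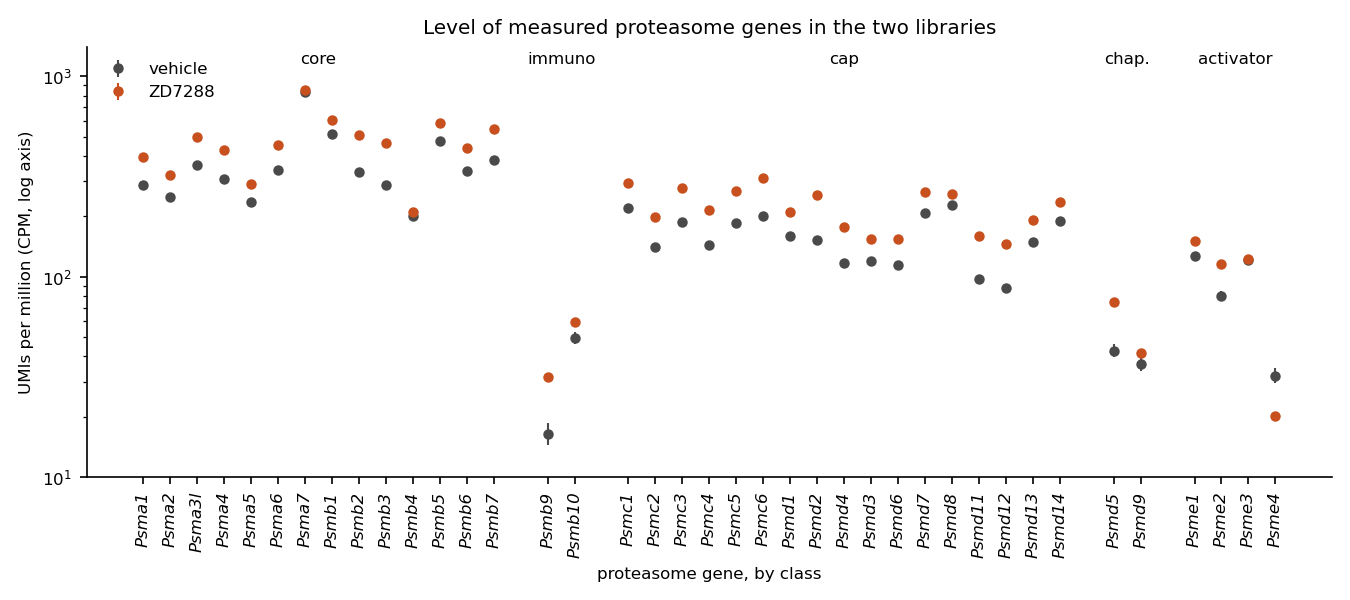
The level of each measured proteasome gene is plotted in CPM on a log axis for the vehicle (grey) and ZD7288 (orange) libraries, by class, with exact 95% Poisson counting intervals. Core genes span 201 to 852 CPM and cap genes 87.4 to 312 CPM, the immunoproteasome genes lie below both, and the points of Psma7, Psmb4 and Psme3 nearly coincide.

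Levels ranged widely within the core particle although each subunit enters it in equal number. The highest core gene was 4.13-fold above the lowest in vehicle and 4.07-fold in ZD7288 cells, Psma7 against Psmb4 in both. A count at the 3′ end needs no correction for transcript length, but capture can differ between genes, so levels of different genes are approximate. The coefficient of variation of the 14 core levels was 43.1% in vehicle and 33.2% in ZD7288 cells, with the most abundant gene nearly level and most others higher.

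In all kept cells the cap differed somewhat more than the core. Its 17 base and lid genes summed to 2699 CPM in vehicle and 3770.4 CPM in ZD7288 cells, a ratio of 1.40 (1.38 to 1.41). All 17 had ratios above 1, against 59.5% of all measured genes, and 15 were called higher, against 27.1%. The median log2 ratio was 0.49, against 0.09 over all measured genes. The cap's share of core and cap UMIs, a measure free of library scaling, was 34.4% (34.1 to 34.7) in vehicle and 36.4% (36.3 to 36.5) in ZD7288 cells. In cells with at most 5% mitochondrial UMIs the summed log2 ratio of the cap was 0.18, against 0.48 in all kept cells. The core stood at 0.17 there, so cap and core were nearly alike. Of the 17 cap genes 4 were called higher in these cells, against 17.7% of all genes, and 16 were above 1, against 50.8%.

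The base holds the ATPase ring and its scaffold. All 6 ATPase genes were called higher, against 27.1% of all measured genes. Together they stood at 1078 CPM in vehicle and 1561 CPM in ZD7288 cells, 1.45-fold higher (1.42 to 1.47). Psmc6 was at 199.98 and 312 CPM, 1.56-fold higher, and Psmc4 at 143 and 215 CPM, a log2 ratio of 0.59 (0.52 to 0.65). The least different ATPase gene was Psmc1, at 221 and 292 CPM, 1.32-fold (1.27 to 1.37). The whole ring thus lay in a narrow band. Psmd2, a scaffold subunit of the base, was at 153 CPM in vehicle and 256 CPM in ZD7288 cells and had the widest difference of the cap, 1.67-fold (1.60 to 1.75). Psmd4, a ubiquitin receptor, was at 117 and 177 CPM, 1.51-fold higher (1.44 to 1.58).

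The lid, which holds the deubiquitinating subunit Psmd14, was higher by 1.31-fold (1.29 to 1.33) in sum, at 1190.4 CPM in vehicle and 1565 CPM in ZD7288 cells. Of its 8 genes 6 were called higher, against 27.1% of all measured genes. Psmd12 was at 87.4 and 146 CPM, 1.67-fold higher (1.58 to 1.77), and Psmd11 at 97.0 and 159 CPM, 1.64-fold (1.55 to 1.73). Both are structural lid subunits, and Psmd12 had the lowest level of all cap genes in both libraries. Psmd14 itself, at 189 and 236 CPM, had a log2 ratio of 0.317, just outside the rule, and Psmd8, at 228 and 258 CPM, was 1.13-fold higher (1.09 to 1.17). Psmd7, at 207 and 265 CPM and a log2 ratio of 0.36, was the member nearest to the rule from inside.

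The assembly chaperones of the base bind the ATPases while the cap is put together and leave the finished particle. Psmd5 stood at 42.7 CPM in vehicle and 74.6 CPM in ZD7288 cells, 1.75-fold higher (1.61 to 1.89). Psmd9 was at 36.9 and 41.7 CPM, 1.13-fold (1.03 to 1.24). Psmd10, at 9 and 98 UMIs or 0.577 and 1.33 CPM, lay far below the floor. Psmd5 was thus the only measured chaperone among these that was called higher, and it was still 1.39-fold higher in cells with at most 5% mitochondrial UMIs.

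Psmb9 and Psmb10 were expressed at low level, and Psmb8 was not detectable in the vehicle library. Psmb9, which replaces Psmb6, stood at 16.4 CPM in vehicle (256 UMIs) and 31.4 CPM in ZD7288 cells, 1.92-fold higher (1.68 to 2.19). This was the largest ratio among the measured proteasome genes, but Psmb9 counted as measured only through its level in the ZD7288 library. The same held in cells with at most 5% mitochondrial UMIs, at 16.5 and 31.1 CPM, where the ratio was 1.88, nearly the same. With each cell thinned to 2000 UMIs the log2 ratio was 0.62, against 0.94 unthinned. Psmb10, which replaces Psmb7, was at 49.6 and 59.8 CPM, 1.21-fold (1.12 to 1.30), which is within the size rule. It passed the rule in cells with at most 5% mitochondrial UMIs, at 48.3 and 62.6 CPM, as it did below 10 cell cycle UMIs (a log2 ratio of 0.46) and with cells weighted equally (0.36). Psmb8, which replaces Psmb5, was near 0, and whether its 3′ end lies inside the gene models used for counting was not tested. It had 0 UMIs in vehicle and 3 in ZD7288 cells, where a count of 0 allows up to 0.192 CPM by the limit of 3 counts, and no ratio is given.

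The immunoproteasome genes were also set against their constitutive partners. Psmb9 made up 4.66% (4.12 to 5.25) of Psmb9 and Psmb6 UMIs in vehicle and 6.70% (6.44 to 6.97) in ZD7288 cells. Psmb10 made up 11.5% (10.7 to 12.3) of Psmb10 and Psmb7 UMIs in vehicle and 9.83% (9.56 to 10.1) in ZD7288 cells. Summed over the 3 pairs, the immunoproteasome share was 5.24% (4.93 to 5.56) and 5.49% (5.36 to 5.62), with intervals that overlap. In cells with at most 5% mitochondrial UMIs it was 4.26% (3.70 to 4.88) in vehicle and 5.49% (5.33 to 5.66) in ZD7288 cells, with intervals that do not overlap. In the same cells Psmb9 made up 3.74% (2.79 to 4.88) and 6.40% (6.07 to 6.74) of its pair, and Psmb10 9.12% (7.77 to 10.6) and 9.97% (9.62 to 10.3). The lower Psmb10 share in ZD7288 cells was thus not seen there, while the higher Psmb9 share was.

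Psmb9 and Psmb10 UMIs came from many cells rather than a few. With every cell thinned to 2000 UMIs, a Psmb9 UMI was seen in 4.14% (2.81 to 5.86) of 724 vehicle cells and 6.33% (5.48 to 7.26) of 2956 ZD7288 cells, and without thinning in 28.8% and 47.9%. Psmb10 was seen in 9.25% (7.24 to 11.6) of thinned vehicle cells, in 10.7% (9.57 to 11.8) of thinned ZD7288 cells, and in 57.5% and 68.1% of whole cells. At 1000 UMIs per cell the Psmb10 shares went the other way, at 6.28% (4.64 to 8.29) and 5.36% (4.60 to 6.21). At 5000 UMIs they were 22.4% and 24.8%. Shares of whole cells are not at equal depth, with medians of 17119 and 23001 UMIs per cell. The libraries held no population in which these genes ought to be silent, so how many of these UMIs came from free RNA was not tested. Of 11 antigen processing and interferon genes, 4 were measured, too few to set against the 27.1% of all measured genes higher and 13.7% lower. Of these, 0 were higher and 1, the chaperone gene Calr, was lower, at 522 and 379 CPM. B2m, the light chain of class I antigen molecules, was at 590.0 and 587 CPM, and the class I gene RT1-A1 at 23.4 and 28.6 CPM. Interferon-linked regulators were near or at 0, with Irf1 at 1.54 and 1.49 CPM and Nlrc5 at 0 UMIs in both. Also below the floor were Erap1 at 10.1 CPM in vehicle and 15.1 CPM in ZD7288 cells and Tap1 at 4.87 and 6.92 CPM. Tapbp was at 5.77 and 7.41 CPM, RT1-A2 at 1.28 and 2.16 CPM, and Tap2 had 0 UMIs in both.

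The activators did not move together. Psme2, a subunit of the interferon-inducible ring activator, stood at 80.6 CPM in vehicle and 116 CPM in ZD7288 cells, 1.43-fold higher (1.35 to 1.52). Its partner Psme1 was at 127 and 151 CPM, 1.19-fold (1.13 to 1.25). Both were within the size rule and close to each other in cells with at most 5% mitochondrial UMIs, with log2 ratios of 0.26 for Psme2 and 0.29 for Psme1. Psme3, which forms a nuclear ring activator of its own, was at 121 and 123 CPM, with a ratio of 1.02 (0.969 to 1.07). Psme4, a large nuclear activator, went the other way, at 32.1 CPM (29.3 to 35.0) in vehicle and 20.2 CPM in ZD7288 cells, 1.59-fold lower (1.43 to 1.76). It was the 1 proteasome gene called lower, and it was also called lower in cells with at most 5% mitochondrial UMIs, at 26.9 and 18.8 CPM. Psme4 made up 8.90% (8.16 to 9.67) of all activator UMIs in vehicle and 4.93% (4.68 to 5.18) in ZD7288 cells, while Psme1 and Psme2 together made up 57.6% (56.3 to 58.9) and 65.0% (64.5 to 65.6).

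Promoter sequence was set beside these genes, because NRF1 and NRF2 are known to act on proteasome genes through the antioxidant response element and interferon-activated factors through the interferon response element. In the 250 bases upstream of each gene start in RefSeq (build GRCr8), available for 39 of the 44 genes, TGACNNNGC, the core of the antioxidant response element, was searched on both strands and found in 7 of 39 promoters (17.9%) and in 10.1% of 33469 promoters. The interferon response element, searched as a pair of GAAA stretches with any 2 bases between them, was found in 5 of 39 (12.8%) and in 3.41% of all. CCAAT was found in 19 of 39 (48.7%) and in 34% of all. The stretches below show the matches of the catalytic subunits, of Psmb2 and of the activators that went opposite ways, 5′ to 3′ on the strand of the gene, with the matching letters in capitals. In Psme4 the match lies on the opposite strand, and in Psmb2 it overlaps a CCAAT match.
Psmb2, chr5:144254965-144255024, plus strand: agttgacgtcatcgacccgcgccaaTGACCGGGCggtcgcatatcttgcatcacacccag
Psmb5, chr15:32047405-32047464, minus strand: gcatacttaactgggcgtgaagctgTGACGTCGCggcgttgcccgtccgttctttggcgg
Psmb6, chr10:55737828-55737887, plus strand: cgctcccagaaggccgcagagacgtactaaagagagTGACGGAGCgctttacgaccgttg
Psme4, chr14:108706563-108706622, plus strand: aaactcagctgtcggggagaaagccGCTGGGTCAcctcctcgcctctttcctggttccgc
Psmb10, chr19:50743293-50743352, minus strand: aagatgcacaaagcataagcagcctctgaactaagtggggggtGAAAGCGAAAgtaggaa
Psme2, chr15:33052770-33052829, minus strand: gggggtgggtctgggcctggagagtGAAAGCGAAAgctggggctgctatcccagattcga

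The first 4 stretches hold the antioxidant response element letters and the last 2 those of the interferon response element. Psmb10 and Psme2 share the same 10 letters, GAAAGCGAAA, and Psmb10 has a second match farther from the start. Psmb9, with the largest ratio, had neither motif in this window, and Psme4, the gene called lower, had the antioxidant response element letters. The antioxidant response element letters were also in the promoters of Psma3l, Psmd1 and Psmd9, and the interferon response element in those of Psma4, Psmb3 and Psmd7. A match describes the letters only.

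Other genes of the pathway were taken from a list of related factors. Of 30 matched genes 27 were measured, 10 were called higher, 1 lower and 16 neither, against 27.1% of all measured genes higher and 13.7% lower. Their median log2 ratio was 0.17, against 0.09 over all measured genes. In cells with at most 5% mitochondrial UMIs 2 of 26 measured genes were called higher, Sqstm1 and Rad23b, and 1 lower, Nploc4, against 17.7% and 15.9% of all genes. Among factors of the cap, Usp14, a deubiquitinase that binds it, was at 96.9 CPM in vehicle and 149 CPM in ZD7288 cells, 1.54-fold higher (1.46 to 1.63). Psmf1, an inhibitor of the core particle, was at 32.3 and 44.7 CPM, 1.38-fold (1.26 to 1.52), Txnl1 at 207 and 269 CPM, 1.30-fold, and Akirin2, which carries proteasomes into the nucleus, at 97.1 and 125 CPM, 1.29-fold. The cap subunit genes outside the symbol rule differed little, Adrm1 at 211 and 252 CPM and Sem1 at 803 and 754 CPM. Of 4 measured core assembly chaperones, 1 was called higher, Psmg2, at 52.2 and 75.8 CPM. Pomp, the maturation factor of the core, was listed with 0 UMIs in vehicle and 0.0136 CPM in ZD7288 cells. Every cell needs it, and whether the gene models used for counting hold its 3′ end, or that of Psmd10, was not tested.

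Among genes that act before the proteasome, Sqstm1, an autophagy receptor that also binds ubiquitin, was at 50.2 and 104 CPM, 2.08-fold higher (1.93 to 2.24), and at 56.0 and 115 CPM in cells with at most 5% mitochondrial UMIs. Ubqln1 and Rad23b, which carry tagged proteins to the cap, were 1.49-fold (1.42 to 1.57) and 1.45-fold (1.40 to 1.51) higher. Vcp, an unfolding ATPase, was at 239 and 336 CPM, 1.40-fold higher (1.36 to 1.45). Nploc4, a partner of Vcp, was the 1 gene called lower, at 26.8 and 20.9 CPM, a ratio of 0.780 (0.699 to 0.871). Nfe2l1, which encodes the transcription factor NRF1, was below the floor, at 2.18 and 4.87 CPM.

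The level of proteasome genes was lower in cells with a larger mitochondrial share, and more so in the vehicle library. In cells with up to 4% mitochondrially encoded UMIs (49 vehicle, 867 ZD7288), the vehicle cap summed to 3573 CPM (3423 to 3728) and the ZD7288 cap to 4024 CPM (3993 to 4056). In cells with 7 to 10% (138 and 148), the sums were 2087 CPM (2037 to 2137) and 3275 CPM (3213 to 3339). The ratio of the libraries therefore widened from 1.13 (1.08 to 1.18) to 1.57 (1.52 to 1.62). For the core the ratio was 1.10 (1.07 to 1.14) in the lowest range, 1.12 at 4 to 5%, 1.19 at 5 to 6%, 1.31 at 6 to 7% and 1.39 (1.36 to 1.42) in the highest. The ZD7288 library was thus higher in every range, and the ranges are filled differently, with 6.69% of vehicle and 27.7% of ZD7288 cells in the lowest and 18.9% and 4.72% in the highest.

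**Figure D3:**
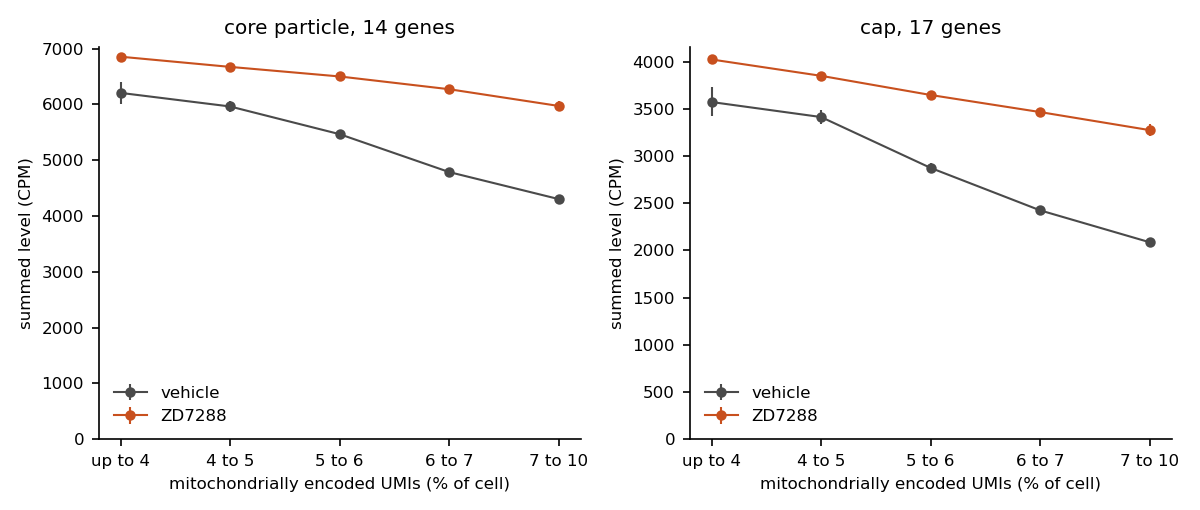
Summed level in CPM of the 14 core genes (left) and the 17 cap genes (right) is plotted against the mitochondrially encoded share of a cell's UMIs for vehicle (grey) and ZD7288 (orange) cells, with exact 95% Poisson counting intervals. Both libraries decline to the right, the vehicle library more steeply, from 3573 to 2087 CPM for the cap against 4024 to 3275 CPM.

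Within the vehicle library the decline took in most of the complex. Between 324 cells above 6% and 159 cells up to 5% mitochondrial UMIs, all with at least 5000 UMIs, 31 of 39 measured proteasome genes were lower in the cells above 6% by the size rule, including all 17 cap and 11 of 14 core genes, against 32.6% of all measured genes. Psmd12 was at 120 CPM in the cells up to 5% and 69.1 CPM in those above 6%, Psmc4 at 201 and 116 CPM and Psmd2 at 205 and 121 CPM. Psma7 (842 and 825 CPM), Psmb4 (196 and 198 CPM) and Psme1 (125 and 124 CPM) differed least. Psma7 and Psmb4 were also the core genes that differed least between the libraries. Psme4 was the 1 gene called higher in the vehicle cells above 6%, at 34.0 against 27.2 CPM, against 7.02% of all genes. Its log2 difference was 0.322 in vehicle and 0.324 in ZD7288 cells, both just past the size rule, with no counting interval made. In the ZD7288 library the same comparison (406 and 1640 cells) called 1 of 40 genes lower, Psmd5, and 1 higher, Psme4, against 10.1% and 4.07% of all genes, and the median log2 difference was -0.16 against -0.54 in vehicle. Whether the libraries differ in this relation was not tested.

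Counted per cell at equal depth, most ZD7288 cells held at least as many core and cap UMIs as the median vehicle cell. At 2000 UMIs per cell, vehicle cells held a mean of 16.2 core and cap UMIs (SD over cells 5.50, 724 cells) and ZD7288 cells 21.1 (SD 5.12, 2956 cells). In the ZD7288 library 86.9% of cells were at or above the vehicle median of 16. In the vehicle library 21.4% of cells were at or above the ZD7288 median of 21. The spread beyond counting was larger in vehicle cells, with a variance over mean of 1.86 against 1.24, where counting error alone gives about 1. Core and cap UMIs of the same cell had a Pearson r of 0.29 over vehicle cells and 0.08 over ZD7288 cells, given as a description of sparse counts that share library and depth. Within the range of 5 to 6% mitochondrial UMIs, the variance over mean was 1.69 in 230 vehicle and 1.20 in 796 ZD7288 cells, and the means were 16.7 and 20.4. The means were 19.2 and 22.5 in cells up to 4% (43 vehicle, 701 ZD7288). At 7 to 10% (137 and 144 cells) they were 13.4 and 19.3. Whether most cells shifted or the mix of cells differed was not tested.

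**Figure D4:**
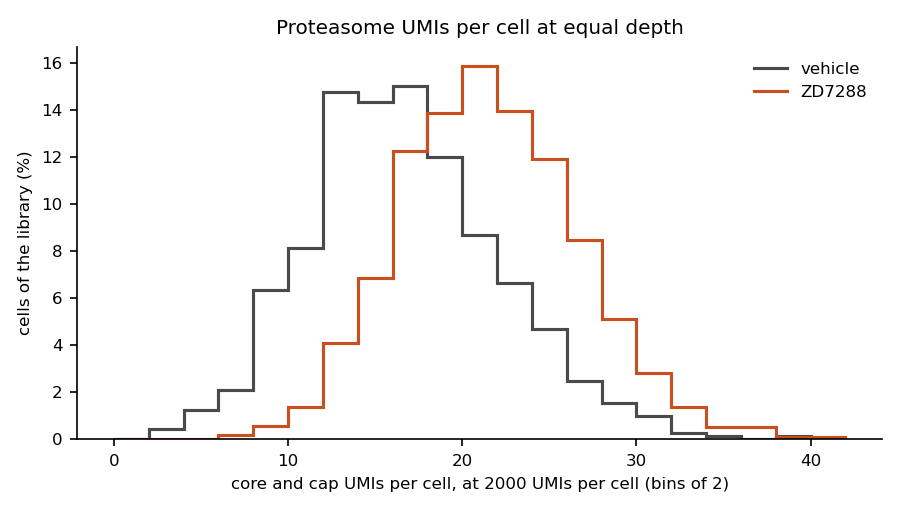
Share of the cells of each library (vertical axis, %) by the number of core and cap UMIs per cell at 2000 UMIs per cell (horizontal axis, bins of 2), for 724 vehicle (grey) and 2956 ZD7288 (orange) cells. The means are 16.2 and 21.1 UMIs, and the distributions overlap.

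The difference was of similar size in cells with little and with much cell cycle RNA. Below 10 UMIs of S phase and G2/M genes, 106 vehicle cells held a mean of 16.0 (SD 5.27) and 771 ZD7288 cells 21.0 (SD 5.11) core and cap UMIs, and from 10 UMIs the means were 16.3 (SD 5.54) and 21.1 (SD 5.12). These ranges are cuts of a score and not cell types. The median mitochondrial share below and from 10 UMIs was 6.66% and 5.76% in vehicle and 4.83% and 4.76% in ZD7288 cells. Its part was not tested.

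Stress gene scores were set beside the same counts. In the 25% of vehicle cells with the fewest and the 25% with the most UMIs of ATF4 amino acid stress genes, the mean core and cap UMIs were 15.1 (SD 4.88) and 18.1 (SD 5.78), and in ZD7288 cells 20.5 (SD 5.22) and 21.6 (SD 4.99). The median mitochondrial share of these cells also differed, at 6.37% and 5.26% in vehicle and 5.52% and 4.28% in ZD7288 cells, and its part was not tested. For NRF2 target genes the corresponding means were 16.2 (SD 5.24) and 16.0 (SD 5.23) in vehicle cells. In ZD7288 cells they were 21.0 (SD 5.17) and 21.0 (SD 4.88). The median mitochondrial share was 5.60% and 6.12% in these vehicle cells and 4.92% and 4.46% in these ZD7288 cells, and its part was not tested. The ZD7288 cells with the fewest ATF4 or NRF2 UMIs of their library had a higher mean than the vehicle cells with the most of theirs. The 25% groups were cut within each library and their stress gene UMIs are not given, so this does not compare libraries at equal score. The part of stress genes in the library difference was not tested.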

How the data were processed

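The deposited matrix held raw UMI counts per gene and barcode of both libraries, with no normalisation, made with Cell Ranger per the submitters' processing notes (software version 3.0.2 per the file headers). For the genome build, annotation, barcode selection and strand setting, the sources used here give nothing. The deposited barcode table, of other content than measurements, gave the library as the number after the hyphen, matched to the number opening each sample title, and if that match were wrong every ratio would be inverted. The deposited gene table gave symbols, another non-numeric content. The members and gene lists were chosen with earlier results of these data known.

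Cells were kept with at least 1000 UMIs, 500 genes and at most 10% UMIs of 13 mitochondrially encoded genes (732 of 842 and 3135 of 3849 barcodes). Counts were summed per library and scaled to 1000000. Ratios carry Clopper-Pearson intervals on the treated share of both counts, CPM values Poisson intervals and shares binomial intervals, all exact at 95%. Cells are not replicates and no p-value is given. All core, immunoproteasome and activator genes were to be named, and in the cap and other lists those with the largest differences past the size rule. Psmc1, Psmd7, Psmd14, Adrm1, Sem1, Pomp, Nfe2l1, B2m, RT1-A1, RT1-A2, Irf1, Nlrc5, Erap1, Tap1, Tap2 and Tapbp were named outside this rule after their values were seen. Psmc2, Psmc3, Psmc5, Psmd1, Psmd3, Psmd6 and Psmd13 were called higher and are not described singly. Of 277 list symbols 267 matched 1 row, by symbol or RefSeq synonym. RefSeq names pseudogenes of 18 of the 44 genes, the most for Psmb3 (7) and Psma6 (5). The others are Psma2, Psma3l, Psma5, Psma7, Psmb4, Psmb6, Psmb7, Psmc4, Psmc6, Psmd1, Psmd8, Psmd12, Psmd14, Psme1, Psme2 and Psme3. Reads of all 18 may be divided or lost, and their levels are uncertain. Thinning drew 2000 UMIs per cell without replacement and left out 8 vehicle and 179 ZD7288 cells. Likely doublets (83 cells, the highest share of simulated doublets among neighbours, marked at 0.8% of a library per 1000 cells) were kept and left out as an alternative. Ratio intervals were tested on simulated counts. Thinning was checked on deposited barcodes, for a sum of 2000 UMIs in each and for no count above its original. Python 3.11.15, numpy 2.4.6, scipy 1.17.1, pandas 2.3.3 and scikit-learn 1.9.0 were used. Alternatives covered scaling, cell filter, cell weight, depth, doublets, cell cycle range, CPM floor and size rule, and 3 limits on UMIs and mitochondrial share were added after the data were seen. The values of 1 gene of the wider pathway list are not reported here.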

Additional observations from a re-analysis of the deposited data

How the results depend on the processing

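No paired analysis was possible because each group was 1 library. The log2 ratio of the summed core was 0.36 and that of the cap 0.48. With at least 5000 UMIs and at most 5% mitochondrial UMIs (159 vehicle and 1640 ZD7288 cells) they were 0.16 and 0.18, with the 5% limit alone 0.17 and 0.18, above 5% 0.38 and 0.50, and with the UMI minimum alone neither left its counting interval. Of these settings, the first and the second each had 8 genes called higher, against 27 in the main analysis. Psmb10 was called higher under both and was within the rule in the main analysis. Of all measured genes 17.7% were called higher under the second setting and 27.1% in the main analysis, and the share under the first is not given. At 1.5-fold 10 genes were higher, against 10.1% of all genes, and at 2-fold 0, against 2.88%. Median gene scaling gave 0.27 for the core, 0.39 for the cap and 0.094 for the activators (0.18 in the main analysis), and totals without mitochondrial and ribosomal protein genes 0.29, 0.41 and 0.11. The core was at 0.32 with cells weighted equally and at 0.32 at 2000 UMIs per cell. In cells below 10 cell cycle UMIs the immunoproteasome was at 0.60 (0.47 in the main analysis), the cap at 0.56 and the activators at 0.33, and 2 genes were called lower, Psme4 and Psmc3ip, while at a floor of 50 CPM or a 2-fold rule 0 were. The immunoproteasome share of vehicle catalytic UMIs was 4.29% under the stricter filter and 4.26% at the 5% limit, and the ZD7288 share 5.34% at 2000 UMIs per cell and 5.64% below 10 cell cycle UMIs. The cause of these shifts was not tested. Of the class sums and the called genes, none changed direction under these settings, while the uncalled Psma7, Psmb4, Psme3, Psmd8, Psmd9 and Psmc3ip went below 1 in at least 1. The vehicle library is the shallower one and sets the width of every ratio, and Psmb8 was not detectable at its depth.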
